A study of Mus musculus with 12 samples.

Results

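A set of 9 surface ligand genes through which a cell can hold back or engage T cells, NK cells and macrophages were examined in mouse pancreatic stellate cells and in mouse pancreatic cancer cells. They were Cd274, Pdcd1lg2, Cd80, Cd276, Pvr, Nectin2, Cd47, Ulbp1 and Lgals9, a list given by symbol and matched to Ensembl identifiers, 9 of 17335 genes in the count tables of both lines. All 9 had a row in the KPC4 table, and 8 had one in the PSC4 table. Pdcd1lg2 (ENSMUSG00000016498) had no row in the PSC4 table analysed here.

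RNA was sequenced from 12 cultures in 4 groups of 3 biological replicates. PSC4, an established stellate cell line, spent 24 h in Control-SU or Gem-SU, the supernatant of KPC4 cells given vehicle or 10 µM of the nucleoside analogue gemcitabine for 6 h, washed, and kept for 14 h in starvation medium. KPC4, an established pancreatic adenocarcinoma line, spent 24 h in Control-PSC-SU or Gem-PSC-SU. This was the starvation medium of PSC4 cells that had first spent 6 h in one of these supernatants and were then washed and cultured for 18 h. All 4 groups therefore received medium conditioned by the other line, and no group analysed here received the drug directly or unconditioned medium. Each cell type is represented by 1 line.

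The B7 family proteins PD-L1 (Cd274) and PD-L2 (Pdcd1lg2) bind the T cell receptor PD-1 and dampen T cell activity, whereas CD80 gives costimulation through CD28 and inhibition through CTLA-4. The nectin-type ligands CD155 (Pvr) and CD112 (Nectin2) are shared by the activating receptor DNAM-1 and the inhibitory receptor TIGIT, and MULT-1, the product of Ulbp1, is a stress-induced ligand of the activating NK receptor NKG2D. CD47 signals to SIRPα on macrophages to prevent engulfment, and galectin-9 (Lgals9) binds glycans on TIM-3 and other surface proteins. In pancreatic cancer several of these ligands are found on tumour cells and on stromal cells, and whether the protein reaches the surface cannot be read from RNA.

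RefSeq promoter windows, from 250 bases before to 50 after the annotated start (build GRCm38.p6), were matched for 8 of the 9 genes, and Pvr was the gene without a match. The windows of 3 genes that were higher and 2 that were lower in PSC4 with Gem-SU are printed 5′ to 3′ on the strand of the gene, with the bases that matched a searched motif in capitals. They are Cd80 at chr16:38458683-38458982 (plus strand), Cd274 at chr19:29367188-29367487 (plus), Ulbp1 at chr10:7473428-7473727 (minus), Cd47 at chr16:49855404-49855703 (plus) and Lgals9 at chr11:78984875-78985174 (minus).
Cd80: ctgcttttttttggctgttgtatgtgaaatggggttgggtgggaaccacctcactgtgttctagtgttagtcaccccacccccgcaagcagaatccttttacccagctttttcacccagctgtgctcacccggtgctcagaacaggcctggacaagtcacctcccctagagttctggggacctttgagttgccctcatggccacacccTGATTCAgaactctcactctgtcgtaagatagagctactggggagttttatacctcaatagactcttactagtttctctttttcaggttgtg
Cd274: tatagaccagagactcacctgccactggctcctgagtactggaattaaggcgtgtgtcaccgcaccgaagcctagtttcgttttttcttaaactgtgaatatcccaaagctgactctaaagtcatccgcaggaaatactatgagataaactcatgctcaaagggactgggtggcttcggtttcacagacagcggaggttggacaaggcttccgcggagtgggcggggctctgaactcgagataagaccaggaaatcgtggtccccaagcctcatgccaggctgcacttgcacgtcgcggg
Ulbp1: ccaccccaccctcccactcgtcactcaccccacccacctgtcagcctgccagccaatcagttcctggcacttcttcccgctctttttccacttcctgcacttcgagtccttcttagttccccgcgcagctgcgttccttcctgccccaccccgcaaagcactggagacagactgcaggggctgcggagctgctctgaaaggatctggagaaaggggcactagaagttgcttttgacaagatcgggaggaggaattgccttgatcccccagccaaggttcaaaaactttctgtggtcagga
Cd47: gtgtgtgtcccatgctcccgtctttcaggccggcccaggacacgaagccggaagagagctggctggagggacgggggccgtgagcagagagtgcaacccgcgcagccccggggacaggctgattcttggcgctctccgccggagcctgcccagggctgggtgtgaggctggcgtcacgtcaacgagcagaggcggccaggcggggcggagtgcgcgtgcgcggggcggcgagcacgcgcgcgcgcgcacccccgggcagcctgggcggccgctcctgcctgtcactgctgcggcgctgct
Lgals9: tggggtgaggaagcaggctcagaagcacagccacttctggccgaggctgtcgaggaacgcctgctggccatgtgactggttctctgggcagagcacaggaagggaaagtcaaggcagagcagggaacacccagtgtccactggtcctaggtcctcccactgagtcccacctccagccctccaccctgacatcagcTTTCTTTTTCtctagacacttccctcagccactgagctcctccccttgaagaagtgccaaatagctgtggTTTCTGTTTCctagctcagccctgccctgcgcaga
The Cd80 window held one match to the AP-1 motif TGANTCA, which began 42 bases before the start and is present in 7.81% of 32851 promoters of the same length. The Lgals9 window held 2 matches to the interferon-response type motif GAAANNGAAA, both on the opposite strand, one 55 bases before the start and one 15 bases after it, against 3.44% of all promoters with at least one. The E-box CACGTG (7.15% of promoters), the STAT motif TTCNNNGAA (8.30%) and the NF-kappaB motif (8.46%) had no match in the 5 windows shown, searched on both strands. The p53 motif, searched as a single unit rather than a whole p53 site (8.36%), had none there either. Among the other windows, that of Pdcd1lg2 held an NF-kappaB match, and those of Cd276 and Nectin2 held none of the motifs. The windows also differed in base composition, from 46.0% GC in Pdcd1lg2 and 49.7% in Cd80 to 74.0% in Cd47 and 78.3% in Cd276. Cd274, at 52.7%, was at the median of all promoters, 52.7%. In the RefSeq gene order Cd274 and Pdcd1lg2 are neighbours on chromosome 19 with 0 protein-coding genes between them, and 6 lie between Pvr and Nectin2 on chromosome 7.

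The libraries held 29559414 to 38138356 counts in PSC4 and 26354328 to 34744150 in KPC4, and replicates differed by far more than counting noise. In PSC4 the summed level of 10 stellate and fibroblast markers was 7820 to 8410 CPM (counts scaled to the library total) with Control-SU. With Gem-SU it was 2400 to 3580 CPM. By the test used below 8 of the 10 were lower and 0 higher, against 22.0% and 24.3% of all genes tested. Acta2 and Des did not pass, and Acta2 was at 15.68 against 26.85 CPM (log2 0.78, adjusted p = 0.0538 by edgeR). The markers thus shifted in the same comparison as the ligand genes, of which 4 were higher and 3 lower. Epithelial markers had 6 of 10 rows in PSC4, with no row for Epcam or Cdh1. They summed to 15.8 to 16.4 CPM with Control-SU and 15.8 to 22.2 with Gem-SU. Of the 4 tested, Krt19 was higher (2.9 against 7.6 CPM, adjusted p = 0.00441 by edgeR). Muc1 was lower (10.9 against 6.3 CPM, adjusted p = 0.0164 by edgeR), where 46.3% of all genes tested passed. Leukocyte markers, with 6 of 10 rows and none for Ptprc, summed to 4.04 to 6.18 CPM. In KPC4 the 9 epithelial markers with a row summed to 6020 to 7520 CPM and the 4 leukocyte markers to 1.25 to 2.68 CPM, overlapping between media. Its 6 stellate markers with a row, which leave out Pdgfrb, Thy1, Des and Postn, summed to 2420 to 2810 CPM with Control-PSC-SU and 1850 to 2210 with Gem-PSC-SU. Nearly all of that sum was Vim, at 2588 ± 191 against 2053 ± 193 CPM (SD, n = 3 each), while each of the other 5 averaged 21.9 CPM or less. Of the 6, 4 were tested and 0 passed, but 0 of all 13236 genes tested in KPC4 passed. Endothelial markers were low in both lines, though higher with Gem-SU in PSC4 (0.609 to 1.43 against 2.70 to 4.85 CPM). The part of these marker shifts in the results was not tested, and in bulk RNA fewer cells of a kind and less RNA per cell cannot be told apart.

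In PSC4, Gem-SU went with higher Cd80, Pvr, Cd274 and Ulbp1 and with lower Cd47, Cd276 and Lgals9. Of the 8 genes with a row, all 8 were tested and 7 had an adjusted p under 0.05, 4 higher and 3 lower, in the quasi-likelihood test of edgeR, adjusted by Benjamini-Hochberg over all 13347 genes tested. The background was high in this comparison, since 46.3% of all genes tested passed, 24.3% higher and 22.0% lower. The 3 libraries of one medium lay wholly above those of the other for 7 of the 8, against 56.4% of all genes. All 7 calls held when any 1 of the 6 libraries was left out.

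**Figure D1:**
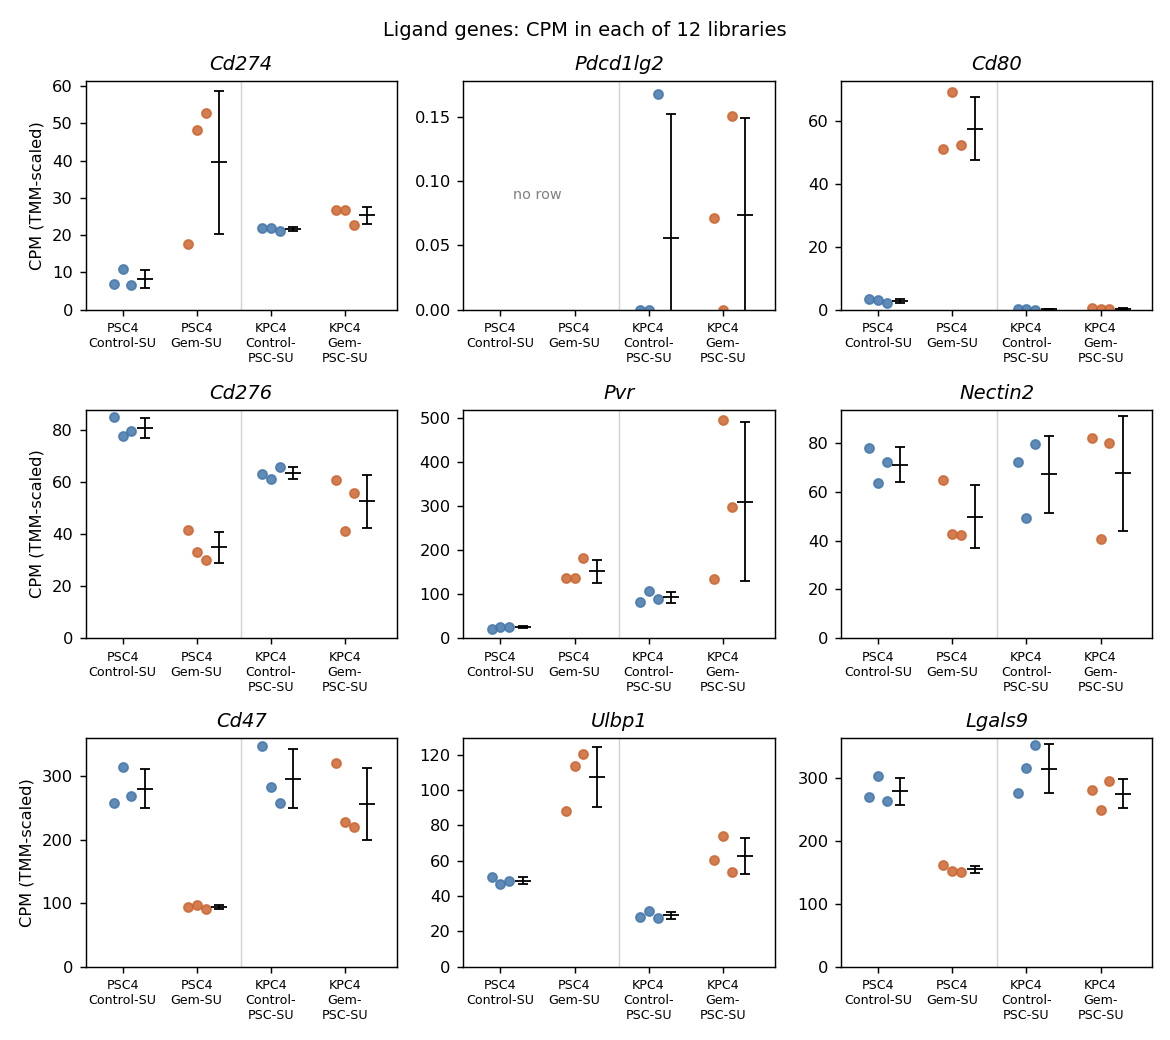
CPM of the 9 ligand genes in each of the 12 libraries (y axis, linear, scaled within each line), with control media in blue, Gem media in orange, and the mean ± SD as a black bar beside each group of 3. Cd80 lies at 2.11 to 3.36 CPM in the PSC4 control libraries and at 51.1 to 69.1 with Gem-SU, while Cd47 falls from 257 or more to 96.8 or less.

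Among the B7 family genes, Cd80 (ENSMUSG00000075122) had the largest change. Its level in PSC4 was 3.36, 3.00 and 2.11 CPM in control replicates 1, 2 and 3, and 51.1, 69.1 and 52.2 CPM with Gem-SU. Every Gem-SU library was thus far above every control library. The mean went from 2.83 ± 0.643 to 57.5 ± 10.1 CPM (SD, n = 3 each), a 20.3-fold rise (log2 4.34, standard error 0.24, adjusted p = 2.1e-05 by edgeR's quasi-likelihood test).

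Cd274 (ENSMUSG00000016496), which encodes PD-L1, stood at 6.99, 10.9 and 6.66 CPM in the PSC4 control libraries and at 17.6, 48.3 and 52.8 CPM with Gem-SU. The groups did not overlap, but Gem-SU replicate 1 was well below the other 2. The mean rose from 8.18 ± 2.35 to 39.5 ± 19.2 CPM (SD, n = 3 each), 4.83-fold (log2 2.27, standard error 0.41, adjusted p = 0.00246 by edgeR). Without any 1 library the log2 change lay between 2.01 and 2.63.

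Cd276 (ENSMUSG00000035914), the gene of B7-H3, moved the other way. It was at 85.2, 77.8 and 79.6 CPM with Control-SU and at 41.4, 33.3 and 30.0 CPM with Gem-SU. The highest Gem-SU library was below the lowest control by a wide margin. The mean fell from 80.9 ± 3.82 to 34.9 ± 5.88 CPM (SD, n = 3 each), 2.32-fold (log2 -1.21, standard error 0.16, adjusted p = 5.99e-04 by edgeR).

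Of the nectin-type ligands, Pvr (ENSMUSG00000040511) rose and Nectin2 (ENSMUSG00000062300) did not pass the test. Pvr was at 21.7, 26.0 and 25.6 CPM in the PSC4 control libraries and at 137, 137 and 182 CPM with Gem-SU. The Gem-SU libraries were all several times above the controls, and the mean rose from 24.5 ± 2.37 to 152 ± 25.9 CPM (SD, n = 3 each), 6.21-fold (log2 2.63, standard error 0.17, adjusted p = 3.74e-05 by edgeR). Nectin2 was at 77.8, 63.5 and 72.3 CPM with Control-SU and at 64.7, 42.6 and 42.4 CPM with Gem-SU. Replicate 1 of Gem-SU overlapped the controls, and the other 2 lay below them. Its log2 difference was -0.51 (95% interval -0.96 to -0.07, adjusted p = 0.0597 by edgeR). Without Gem-SU replicate 1 it was -0.74 (adjusted p = 0.00383) and without Control-SU replicate 2 it was -0.62 (adjusted p = 0.0456). With DESeq2, which called 43.7% of all genes, the adjusted p was 0.0403, within a range of 0.00426 to 0.124 over the settings with every library kept. Over the 6 fits without 1 library it ranged from 0.00383 to 0.21 by edgeR.

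Cd47 (ENSMUSG00000055447) was among the most abundant of these transcripts in control PSC4 and was lower with Gem-SU. It was at 257, 315 and 268 CPM in the control libraries and at 94.3, 96.8 and 90.5 CPM with Gem-SU. The 3 Gem-SU values were close together and far below all controls. The mean fell from 279.9 ± 30.4 to 93.9 ± 3.18 CPM (SD, n = 3 each), 2.98-fold (log2 -1.58, standard error 0.15, adjusted p = 1.3e-04 by edgeR).

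Ulbp1 (ENSMUSG00000079685), the NKG2D ligand, and Lgals9 (ENSMUSG00000001123), the galectin, changed in opposite directions. Ulbp1 was at 50.7, 47.0 and 48.7 CPM with Control-SU and at 88.1, 114 and 121 CPM with Gem-SU. The groups were well apart, with a rise from 48.8 ± 1.82 to 107.6 ± 17.2 CPM (SD, n = 3 each), 2.20-fold (log2 1.14, standard error 0.16, adjusted p = 6.87e-04 by edgeR). Lgals9 was at 270, 304 and 263 CPM with Control-SU and at 161, 152 and 151 CPM with Gem-SU. Every Gem-SU library was below every control, and the mean fell from 279 ± 21.8 to 155 ± 5.86 CPM (SD, n = 3 each), 1.80-fold (log2 -0.85, standard error 0.14, adjusted p = 0.00154 by edgeR).

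In KPC4 the second-step media, Gem-PSC-SU against Control-PSC-SU, gave the largest differences in Pvr and Ulbp1. For genes tested in both lines the estimates were smaller in size than in PSC4, that of Ulbp1 only slightly (log2 1.11 against 1.14). Whether the lines differed is tested below. Of the 9 genes 7 were tested and 0 passed in edgeR, as did 0% of the 13236 genes tested. At an unadjusted p under 0.05 there were 2251 genes, 2 of them ligand genes, Pvr and Ulbp1. The same-numbered KPC4 libraries deviated together from their group means, and once the number entered the fit as a block, 2 of 7 passed, both higher, against 8.85% of all genes (6.07% higher). DESeq2 also called these 2 without the block, against 5.60% of all genes, and with it, against 16.2%. Without Gem-PSC-SU replicate 1 edgeR called both, among 1129 genes in all (8.30%). Without Control-PSC-SU replicate 2 it called 174 genes, and neither of them. The libraries of the 2 media did not overlap for 4 of the 7, Cd274, Pvr and Ulbp1 being higher and Cd276 lower with Gem-PSC-SU, against 22.8% of all genes (11.8% higher and 10.9% lower).

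Pvr in KPC4 was at 82.7, 107 and 88.6 CPM with Control-PSC-SU and at 136, 496 and 298.5 CPM with Gem-PSC-SU. All 3 Gem-PSC-SU libraries were above the controls, replicate 1 only a little and replicate 2 by far the most. The mean was 92.9 ± 12.9 against 310.2 ± 181 CPM (SD, n = 3 each), with a log2 difference of 1.74 (95% interval 0.83 to 2.65, adjusted p = 0.124 by edgeR). With the replicate block it was 1.56 (adjusted p = 0.0279) and without Gem-PSC-SU replicate 1 it was 2.10 (adjusted p = 0.00379). Over the settings tried with every library kept, the adjusted p ranged from 1.75e-09 to 0.143. Over the 6 fits without 1 library it ranged from 0.00379 to 0.509 by edgeR. Within same-numbered pairs the ratios were 1.64, 4.62 and 3.37.

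Ulbp1 in KPC4 was at 28.3, 31.5 and 27.5 CPM with Control-PSC-SU and at 60.2, 74.1 and 53.9 CPM with Gem-PSC-SU. The groups were clearly apart, with pair ratios of 2.13, 2.35 and 1.96. The mean was 29.1 ± 2.10 against 62.7 ± 10.3 CPM (SD, n = 3 each), a log2 difference of 1.11 (95% interval 0.67 to 1.54, adjusted p = 0.112 by edgeR). With the replicate block it was 1.10 (adjusted p = 0.00519) and without Gem-PSC-SU replicate 1 it was 1.13 (adjusted p = 0.018). Over the settings tried with every library kept, the adjusted p ranged from 4.19e-08 to 0.134. Over the 6 fits without 1 library it ranged from 0.018 to 0.509 by edgeR.

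The other 5 tested genes differed by at most 0.27 on the log2 scale in KPC4, and 0 of them passed with the block or by DESeq2. Cd274 was at 22.0, 22.0 and 21.1 CPM with Control-PSC-SU and at 26.6, 26.6 and 22.7 CPM with Gem-PSC-SU. These values did not overlap, but the difference was small, 0.22 (95% interval -0.19 to 0.64, adjusted p = 0.555 by edgeR). For Cd276, whose Gem-PSC-SU libraries ranged from 41.3 to 60.9 CPM under controls of 61.3 to 65.8, the difference was -0.27 (-0.71 to 0.17, adjusted p = 0.498 by edgeR). Cd47, Lgals9 and Nectin2 overlapped between the media. Their log2 differences were -0.21 (-0.68 to 0.26), -0.19 (-0.57 to 0.18) and 0.01 (-0.67 to 0.69).

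Cd80 and Pdcd1lg2 were near the limit of detection in KPC4. Cd80 had 4, 11 and 0 counts with Control-PSC-SU and 13, 8 and 5 with Gem-PSC-SU, and Pdcd1lg2 had 0, 0 and 5 against 2, 0 and 4. Both were removed by the filter on low counts. The groups overlapped for both genes, and at these counts a small difference was not detectable.

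**Figure D2:**
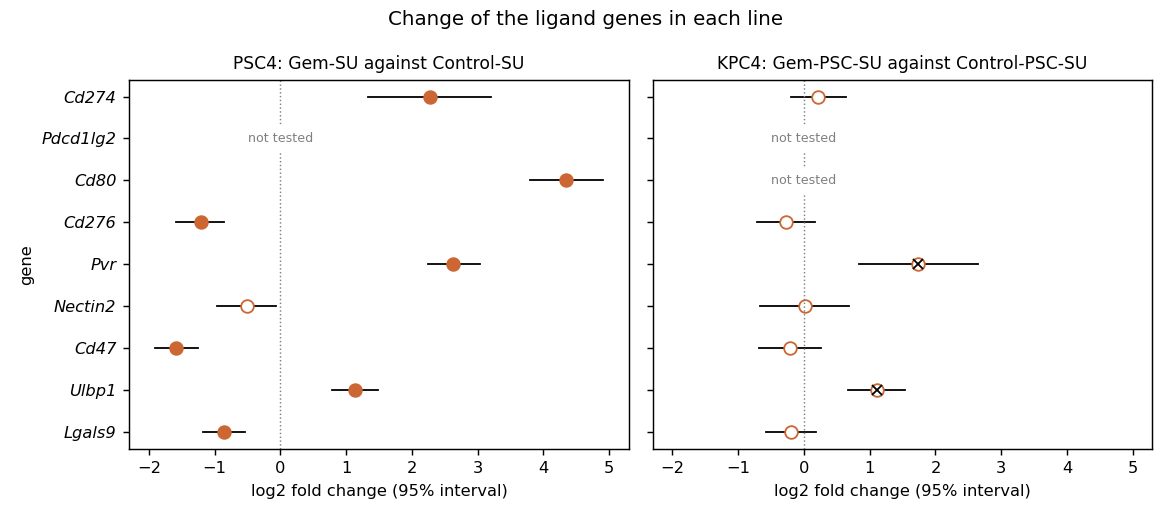
Log2 fold change (x axis) of each ligand gene (y axis) with its 95% interval, in PSC4 (left) and KPC4 (right). Filled points have an adjusted p under 0.05 in edgeR, open points do not, and a cross marks the KPC4 genes that pass with the replicate block, Pvr (1.74) and Ulbp1 (1.11).

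Whether the change differed between the lines was tested as an interaction over all 12 libraries. Both tables held 8 of the genes, and 4 passed, 2 with a more positive and 2 with a more negative change in PSC4, against 9.85% of the 13632 genes tested (4.75% and 5.10%). The PSC4 change minus the KPC4 change was 2.00 on the log2 scale for Cd274 (standard error 0.47, adjusted p = 0.0188), 3.33 for Cd80 (0.83, adjusted p = 0.0251), -1.0 for Cd276 (0.26, adjusted p = 0.0281) and -1.42 for Cd47 (0.26, adjusted p = 0.00572), all by edgeR. The Cd80 value rests on the near-zero KPC4 counts given above. Cd80 entered this fit only through PSC4, was untested with at least 10 counts in every library, and its value was 2.07 (adjusted p = 0.26) without Control-PSC-SU replicate 2. Of the 4, the Cd47 difference passed in all 12 fits that each left out 1 library. Cd274 and Cd80 each passed in 8 of 12 (adjusted p 0.0501 to 0.0599 where Cd274 did not), and Cd276 in 4 of 12 (0.0539 to 0.0758 where it did not). Leaving out Control-SU replicate 3, Gem-SU replicate 2 or Gem-PSC-SU replicate 3 each left 1 of the 8 genes, and Gem-SU replicate 3 or Control-PSC-SU replicate 2 left 2. Without Gem-PSC-SU replicate 2, 6 passed, and the Pvr difference was then 1.35 (adjusted p = 0.0316 by edgeR). The background also varied, with 610 to 1993 of all genes passing over these 12 fits, against 1343 with every library.

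For Ulbp1 the log2 differences were close, 1.14 in PSC4 and 1.11 in KPC4. Its difference of response was -0.01 (95% interval -0.53 to 0.50, adjusted p = 0.978 by edgeR), so a difference of up to about 0.5 on the log2 scale in either direction is within the interval. For Pvr it was 0.86 (-0.14 to 1.85, adjusted p = 0.264), and 1.01 (adjusted p = 0.0444) with the replicate number of each line as a block. For Lgals9 it was -0.71 (-1.17 to -0.25, adjusted p = 0.0529), and it passed with the block (adjusted p = 0.0208) and by DESeq2 (0.012), which called 16.0% of all genes. For Nectin2 it was -0.58 (-1.43 to 0.26, adjusted p = 0.379). With the block 6 of the 8 passed, against 21.9% of all genes.

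The control groups of the lines already differed in some of these genes, with CPM here scaled over all 12 libraries. Of the 8 genes, 2 were higher and 2 lower in PSC4, against 22.3% and 20.6% of all genes tested, or 42.9% in all. Cd80 was higher in PSC4, with 116, 95 and 65 counts against 4, 11 and 0 in KPC4 (adjusted p = 3.25e-05 by edgeR). It is 1 of the 2 called higher, but it entered this fit only through the PSC4 libraries, where it is high. Its p is therefore limited as support. The size of the Cd80 difference is also uncertain, since the fitted log2 value of 4.18 was 5.43 without Control-PSC-SU replicate 2 and 3.65 without replicate 3. Pvr was higher in KPC4, at 94.5 ± 13.8 against 24.7 ± 2.30 CPM (SD, n = 3 each), 3.82-fold (adjusted p = 3.74e-04). Cd274 was also higher in KPC4, at 22.1 ± 0.692 against 8.26 ± 2.31 CPM, 2.67-fold (adjusted p = 0.00361). Ulbp1 was 1.67-fold higher in PSC4 (adjusted p = 0.00296). The control libraries of the lines did not overlap for these 4 and for Cd276, 5 of the 8, against 57.2% of all genes. Cd47, Lgals9, Nectin2 and Cd276 differed by -0.09, -0.18, 0.08 and 0.34 on the log2 scale (PSC4 minus KPC4) and did not pass. Cell line and conditioned medium cannot be told apart in this comparison.

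Compared per length of transcript, as CPM per kb of exon, Lgals9 was the most abundant of these genes in all 4 groups. In control PSC4 it was at 131 ± 10.2 CPM per kb, above 98.0% of genes tested, followed by Cd47 at 44.6, Cd276 at 22.1, Nectin2 at 20.4, Ulbp1 at 7.25, Pvr at 4.0, Cd274 at 2.26 and Cd80 at 0.763. Only the neighbours Cd276 and Nectin2 overlapped in that order. With Gem-SU the order changed. Lgals9 stood at 72.4, Pvr had moved to 24.8, and Ulbp1 (16.0), Cd80 (15.5), Cd47 (15) and Nectin2 (14.3) overlapped, with Cd274 at 10.9 and Cd276 at 9.54. The Cd274 libraries, from 4.85 to 14.6, overlapped those of all the others except Lgals9 and Pvr. Below Lgals9 the gene means thus spanned a narrower range with Gem-SU than with Control-SU.

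In control KPC4 the level was 147 CPM per kb for Lgals9, 47.1 for Cd47, 19.2 for Nectin2, 17.3 for Cd276, 15.2 for Pvr, 5.99 for Cd274 and 4.33 for Ulbp1. Nectin2, Cd276 and Pvr overlapped. With Gem-PSC-SU Pvr was at 50.7 with libraries from 22.2 to 81.1, which overlapped Cd47 at 40.8 and Nectin2 at 19.3. Ulbp1, at 9.33, was above Cd274, at 6.99, in all libraries, the reverse of their order with Control-PSC-SU.

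**Figure D3:**
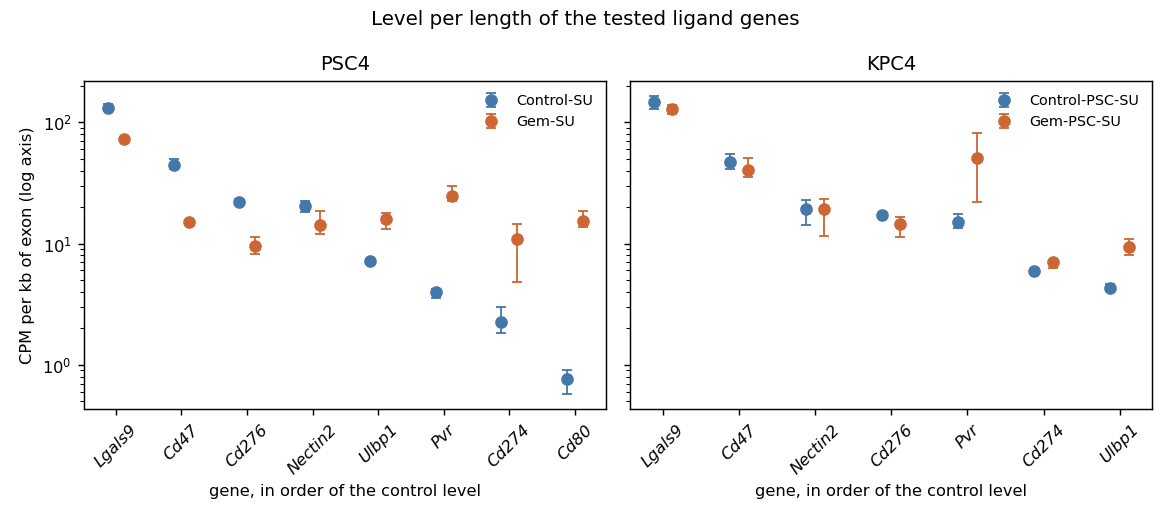
Level of the tested ligand genes in CPM per kb of exon (y axis, log scale) in PSC4 (left) and KPC4 (right), ordered by the control level, with points for group means and bars from the lowest to the highest of 3 libraries. Lgals9 leads in every group, and the PSC4 group means lie between 9.54 and 72.4 with Gem-SU and between 0.763 and 131 with Control-SU.

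Other genes of the same pathways were read in PSC4 from lists of related ligands, regulators and receptors. Of 10 other B7 and butyrophilin-type genes 5 were tested, with 1 higher, 1 lower and a median log2 change of -0.21. Over all genes the median was 0.00, and 24.3% were called higher and 22.0% lower, which is the background for each list in PSC4. Vsir, which encodes the checkpoint protein VISTA, fell from 30.7 ± 2.19 to 3.71 ± 1.93 CPM (SD, n = 3 each; log2 -3.04, adjusted p = 3.83e-04 by edgeR). Icosl, the ligand of the T cell costimulator ICOS, rose from 0.526 ± 0.158 to 2.78 ± 0.767 CPM (log2 2.39, adjusted p = 0.00268). Of 6 other NK ligands tested, 0 were higher and 2 were lower (median -0.39), against 46.3% called over all genes. These were H2-T23, the mouse Qa-1 gene, whose product is the ligand of the inhibitory receptor NKG2A (log2 -1.78, adjusted p = 6.06e-04), and Clec2d, a ligand of NKR-P1 receptors (log2 -1.78, adjusted p = 9.56e-04). The further NKG2D ligand genes Raet1d and Raet1e differed by -0.40 and -0.37 and did not pass (adjusted p = 0.0966 and 0.0761). Reads of near-identical Raet1 copies may be divided between them, which makes their values uncertain.

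Among 4 other nectin and nectin-like genes, 2 were higher and 0 lower (median 0.93). Nectin1 rose from 11.2 ± 3.38 to 34.0 ± 9.84 CPM (log2 1.61, adjusted p = 0.00314 by edgeR). Nectin4 had 1, 6 and 3 counts with Control-SU and 61, 96 and 42 with Gem-SU (adjusted p = 0.00143 by edgeR). It is 1 of the 2 called higher, but it passed the filter on low counts only through the Gem-SU libraries, where it is high. Its p is therefore limited as support, and the size of its rise is uncertain. The fitted log2 value of 4.19 was 3.74 without Control-SU replicate 1 and 4.89 without replicate 2. Of 9 genes of phagocytosis signals and galectins, 1 was higher and 2 were lower (median -0.43). Qpctl, whose enzyme modifies CD47 so that it binds SIRPα, rose from 7.81 ± 1.41 to 28.7 ± 4.93 CPM (log2 1.88, adjusted p = 3.49e-04), opposite to Cd47 itself. Sirpa fell (log2 -0.88, adjusted p = 0.00326), as did Adam10, a sheddase of surface proteins (log2 -0.80, adjusted p = 0.00232).

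Of 14 genes known to regulate PD-L1, 5 were higher and 3 lower in PSC4 (median 0.23), against 46.3% called over all genes. Myc rose from 51.6 ± 4.78 to 172 ± 19.3 CPM (log2 1.73, adjusted p = 1.03e-04 by edgeR) and Rela, a subunit of NF-kappaB, from 94.4 ± 11.5 to 216 ± 35.9 CPM (log2 1.19, adjusted p = 9.22e-04). Stat3 fell from 251 ± 10.0 to 107.5 ± 6.29 CPM (log2 -1.23, adjusted p = 2.81e-04). In the TNF ligand list, which also held the receptor gene Cd40, 3 genes were tested, Cd40 among them, and 0 passed. Tnfsf9 had the smallest p of these, at 5.63 ± 2.24 against 10.1 ± 3.47 CPM (log2 0.85, adjusted p = 0.0734 by edgeR). It passed with the replicate block (adjusted p = 0.0318 by edgeR), by DESeq2 (0.0479) and without Control-SU replicate 2 (0.0214 by edgeR). Of 10 receptors of these ligands only Tigit was tested in PSC4, at 0.446 against 1.23 CPM (adjusted p = 0.055 by edgeR). It passed by DESeq2 (0.0474) and with at least 10 counts in every library (0.0303), within a range of 0.0303 to 0.19 over the settings with every library kept. Over the 6 fits without 1 library the adjusted p of Tigit ranged from 0.0553 to 0.269 by edgeR.

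In KPC4, 0 genes of these lists passed in edgeR. With the replicate block 1 NK ligand and 1 PD-L1 regulator were higher and 1 nectin-like gene was lower. In that fit 8.85% of all genes passed. The NK ligand was Raet1d, with 2, 0 and 2 counts in the control libraries and 15, 24 and 34 with Gem-PSC-SU, a mean of 0.853 ± 0.385 CPM (SD, n = 3). Against a floor of 3 counts per library that mean was at least 9.28-fold higher (adjusted p = 0.115 by edgeR, 0.0312 with the block, 0.00402 by DESeq2). Raet1d entered the test only through the Gem-PSC-SU libraries, where it is high. The regulator was Irf2, an interferon regulatory factor, at 37.9 ± 3.54 against 70.5 ± 14.6 CPM (log2 0.90, adjusted p = 0.124, 0.0136 with the block, 0.00489 by DESeq2). Cadm1, which binds the lymphocyte receptor CRTAM, was at 250 ± 20.8 against 179 ± 22.9 CPM (log2 -0.48, adjusted p = 0.215, 0.0463 with the block). The remaining lists did not pass under either fit, the genes with the smallest p being Cd24a (log2 -0.49), Cd40 (0.88), Fgl1 (0.33) and Havcr2 (0.65), with adjusted p = 0.277, 0.391, 0.836 and 0.251 by edgeR.

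**Figure D4:**
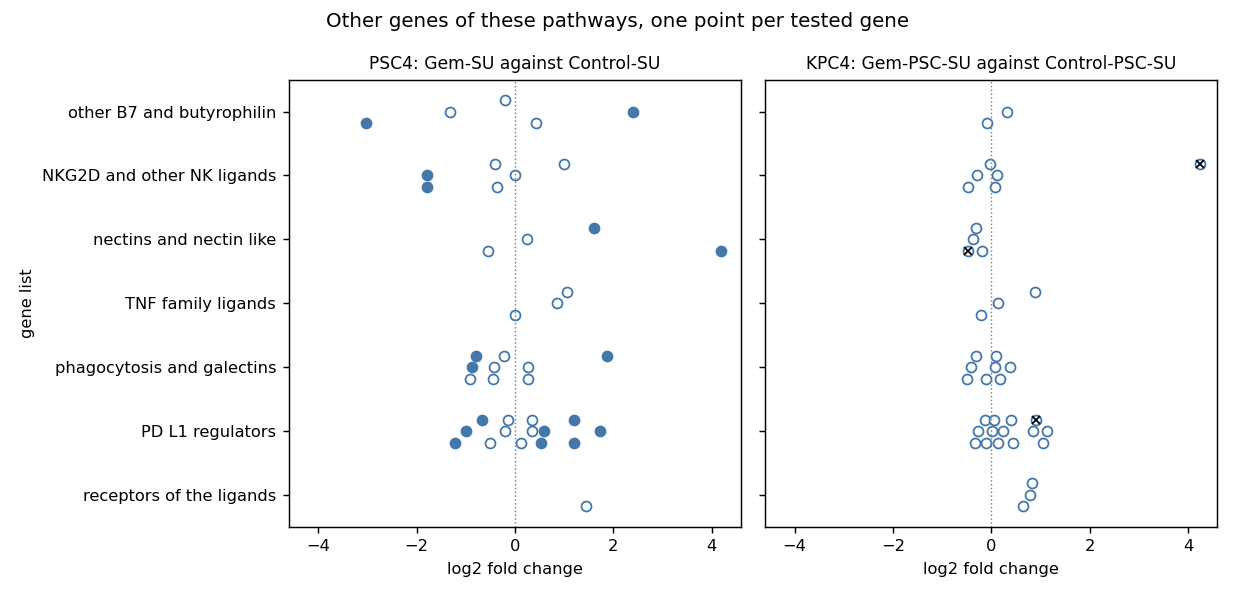
Log2 fold change (x axis) of each tested gene in 7 related lists (y axis) in PSC4 (left) and KPC4 (right). Filled points have an adjusted p under 0.05 in edgeR, crosses mark KPC4 genes that pass with the replicate block, and points are shifted vertically only to separate them; Vsir (-3.04) lies farthest left in PSC4, and the rightmost points are Nectin4 in PSC4 and Raet1d in KPC4, both with near-zero control counts.

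The genes whose values followed the ligand genes most closely were ranked by the correlation of log2 CPM over 12 libraries after each line's mean was subtracted, among 10284 genes. For Cd274 they were Ylpm1 (r = 0.972), Ssh2 (0.968), Ankrd26 (0.963), Usp28 (0.961) and Pdlim5 (0.959). In PSC4 alone their r with Cd274 was 0.976, 0.990, 0.976, 0.980 and 0.984, in that order. In KPC4 alone it was lower, at 0.803, 0.762, 0.621, 0.902 and 0.668. For Pvr they were Mis12 (0.995), Rhpn2 (0.991) and Taf1d (0.990), and for Cd47 they were Flii (0.986), Lifr (0.985) and Deptor (0.984). These values describe likeness only, since the libraries share their media groups and the genes were picked as the highest of many.

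In the authors' deposited table for PSC4, 7 ligand genes had an adjusted p under 0.05, 4 higher and 3 lower, all but Nectin2 (adjusted p = 0.0927). The log2 fold changes there were smaller than from the counts for Cd47 (-1.21) and Pvr (2.25), while that of Cd274 was 2.23 and that of Cd276 was -1.22. The cause was not tested. In the authors' deposited table for KPC4, Ulbp1 (log2 1.01, adjusted p = 0.00513) and Pvr (log2 1.40, adjusted p = 0.00524) passed, and no other ligand gene did, Pdcd1lg2 being listed there without an adjusted p. The share of all genes that passed in the authors' values was not counted here, so these counts stand without their background. In the DESeq2 fits made here without the block, 43.7% of all genes passed in PSC4 and 5.60% in KPC4.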

How the data were processed

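Total RNA of 12 cultures was sequenced on an Illumina NovaSeq X Plus by a commercial provider, per the labels. The authors deposited whole-number read counts per gene and library for each line. The submitters' processing notes name FastQC, Trim Galore 0.6.10, cutadapt 5.2, Salmon, R 4.5.1, DESeq2 and GRCm39 with no role, and which of them made the counts is not given in the sources used here. Row totals started at 11 for KPC4 and at 0 for PSC4. The authors also deposited log2 fold changes and p-values by gene symbol for each line, which were used only as their values. Groups came from the sample titles, and symbols were matched for 99.7% of identifiers in both tables.

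Counts were tested with edgeR 4.0.16 in R 4.3.3 (filterByExpr, TMM scaling, robust quasi-likelihood test, Benjamini-Hochberg threshold 0.05), each line by itself, and over all 12 libraries for differences between lines. CPM uses TMM-scaled totals and its length is the exon union of GENCODE M21. A count of 3 per library was the floor for lower bounds, which cover counting error only. Intervals are at the 95% level. DESeq2 1.42.0, other filters and scalings, a replicate block and leaving out each library were alternatives. The code was tested on simulated data.

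Replicate numbers are shared between groups. Deviations of same-numbered KPC4 libraries had correlations of 0.45, 0.545 and 0.355, each over 0.1, and the pairing was read from these values alone. The ligand genes, related lists, tests and the rule for named genes (in each list and line, up to 3 genes with the smallest p among those that passed, or the 1 with the smallest p where none did, and the closest genes by correlation with a mean of at least 50 counts) were chosen with earlier results of these data known. Raet1d and Raet1e in PSC4 fall outside that rule and were named after their values were seen. Strand handling is not given in the sources used here, so reads of overlapping genes may be shared.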

Additional observations from a re-analysis of the deposited data

Results flagged for a closer look

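For 4 ligand genes a test of the difference itself found that the change in PSC4 was not the change in KPC4 (edgeR interaction over all 12 libraries). In the same fit 9.85% of all 13632 genes tested passed. The PSC4 change minus the KPC4 change was 2.00 on the log2 scale for Cd274, 3.33 for Cd80, -1.0 for Cd276 and -1.42 for Cd47. The Cd80 value is the least certain, since the gene had 0 to 13 counts in KPC4, entered the fit only through PSC4 and fell to 2.07 (adjusted p = 0.26) without Control-PSC-SU replicate 2. That of Cd47 passed whichever library was left out, and those of Cd274, Cd80 and Cd276 did not pass in 4, 4 and 8 of 12 such fits. The media of the lines differed in source and in the step of the transfer, so line and medium cannot be told apart.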

How the results depend on the processing

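In PSC4 the count of ligand genes past the threshold was 7 or 8 under every setting, Nectin2 being the eighth, and it was 7 to 8 when 1 library was left out. Deviations of same-numbered PSC4 libraries had uneven correlations (0.599, -0.032 and 0.101), high only for replicate 1, so a pairing in PSC4 is uncertain. The replicate block there gave 7266 genes against 6177 and passed Nectin2 at an adjusted p of 0.00968 by edgeR. Leaving out 1 library gave 4061 to 6826 genes in PSC4, the lowest without Gem-SU replicate 2. In KPC4 the count of genes went from 0 to 1171 with the replicate block, 806 with DESeq2, 610 in one fit of all 12 libraries and 2137 with DESeq2 and the block, with 2 ligand genes, Pvr and Ulbp1, past the threshold in each. Leaving out 1 library gave 0 to 1129 genes and 0 to 2 ligand genes. The difference of response held 1343 genes, 2988 with the replicate block and 2163 with DESeq2, and 610 to 1993 without 1 library, with 1 to 6 ligand genes. Between control groups it was 4954 to 6272 genes and 4 ligand genes without 1 library, and 3 ligand genes with at least 10 counts in every library, which leaves Cd80 untested. The block changed no other call on a ligand gene than those given. Values near 0 changed sign. Nectin2 in KPC4 was -0.03 with the block, -0.02 with DESeq2 and the block, and -0.16 to 0.27 without 1 library (-0.15, -0.16 and -0.13 in 3 of them), Fgl1 in KPC4 was -0.04 to 1.14 and Nectin2 between controls -0.10 to 0.21 without 1 library, and the Ulbp1 difference of response was 0.01 without the low-count filter and -0.13 to 0.10 without 1 library (0.02, 0.00, 0.10, 0.03, 0.03 and 0.10 where it changed). The cause was not tested. DESeq2 with the block was chosen after seeing the data. Depth limits Cd80 and Pdcd1lg2 in KPC4 and Nectin4 in PSC4.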
